A study of Homo sapiens with 4 samples.

Results

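The 10 genes described here are the members of glutathione synthesis, glutathione recycling and glutathione conjugation named GCLC, GCLM, GSR, GSTP1, GSTO1, GSTO2, GSTA4, GSTM2, GSTM3 and MGST1. They were chosen by symbol, and all 10 were found among the 17215 genes of the deposited table. All 10 passed the filter on low counts and were tested among 13674 genes. Polyadenylated RNA had been sequenced from Cal51, a human triple-negative breast cancer cell line, and from Cal51R, a derivative resistant to the anthracycline doxorubicin, with 2 libraries for each line. The labels name no dose, treatment at harvest or selection scheme, and they do not say whether Cal51R is a clone. They also do not state separate cultures for the replicates, and the p-values then reflect only library-to-library spread, possibly technical.

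Glutathione is a small peptide of glutamate, cysteine and glycine and the main thiol of the cell. Glutamate-cysteine ligase carries out its rate-limiting step, glutathione reductase returns the oxidised form to the reduced form, and glutathione transferases attach it to electrophiles such as drugs and lipid peroxidation products. The conjugates leave the cell through transporters of the ABCC family. Several genes of the system are known targets of the transcription factor NRF2, which binds the antioxidant response element and is held down by KEAP1.

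The libraries held 21637102 and 18537823 estimated reads for Cal51 and 17852484 and 19854907 for Cal51R. A count of 3 reads, taken as the detection limit, was 0.139 to 0.175 counts per 1000000 (CPM) across libraries. Levels below are in CPM after TMM scaling, and in transcripts per 1000000 (TPM) where genes are compared with each other, because TPM takes gene length into account. Markers of cell types differed strongly between the lines: the summed CPM of 5 epithelial markers was 12559 and 14333 in Cal51 and 6959 and 5811 in Cal51R, and that of 5 fibroblast markers was 1756 and 1616 against 405.8 and 395.3. KRT8 and KRT18 carried the epithelial sum, while KRT19 (3.49 and 3.37 against 83.2 and 78.0 CPM) and CDH1 rose. The summed CPM of 4 leukocyte markers was 11.9 and 11.4 in Cal51 against 2.07 and 2.69 in Cal51R, and that of 3 endothelial markers was 57.1 and 53.5 against 139.2 and 145.7. CD68 carried the leukocyte sum, while PTPRC was at 0.246 and 0.175 CPM in Cal51 and 0.636 and 0.557 CPM in Cal51R. PECAM1 carried the endothelial sum, CDH5 rose and VWF did not pass. No marker was at 0 in all libraries, and the part of these differences in the results was not tested. Both samples are cancer cell lines, so these marker transcripts need not come from cells of the named types. In bulk RNA, fewer cells of a type and less RNA per cell cannot be told apart.

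Of the 10 genes, 4 were higher in Cal51R (GSTP1, GSTO2, GCLM and GCLC), 5 were lower (GSTM2, MGST1, GSR, GSTO1 and GSTM3), and GSTA4 did not pass the test. These are calls of edgeR's quasi-likelihood test at an adjusted p under 0.05, by which 70.8% of all tested genes changed, 35.3% upward and 35.5% downward. The lines' CPM did not overlap for any of the 10, but this also held for 85.0% of all tested genes, so neither count sets the group apart. The median log2 fold change of the 10 was -0.05 against 0.02 over all tested genes. The median size of the change, sign ignored, was 0.80 against 0.50. Because the 10 were chosen with earlier results of these data known, this contrast is no test of the group. With TMM scaling, GSTM2 was the only member past 2-fold with an adjusted p under 0.05. Of all tested genes, 23.6% met this in either direction and 9.87% downward. MGST1 lay just inside 2-fold with TMM and just past it with RLE factors (-1.01 on the log2 scale). Scaled by library totals, GSTP1 (1.12), GSTO2 (1.17) and GCLM (1.07) also lay past 2-fold and passed. The matching share of all tested genes was not counted for those scalings.

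**Figure D1:**
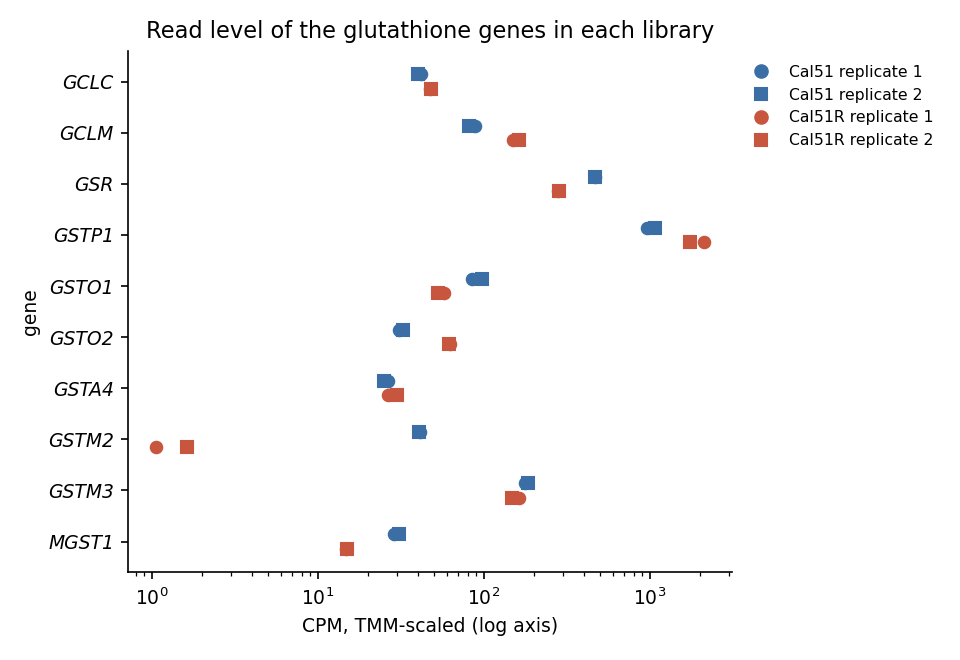
TMM-scaled CPM of the 10 genes in each library on a log axis, with Cal51 in blue, Cal51R in red, circles for replicate 1 and squares for replicate 2. GSTM2 drops from about 41 CPM to under 2 CPM, while GSTP1 lies highest in both lines and rises from 1016 to 1929 CPM.

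Of the 2 subunits of glutamate-cysteine ligase, the modifier subunit rose far more than the catalytic one. GCLM (gene ID 2730, chromosome 1, 93885199 to 93909430), which raises the activity of the enzyme, had 88.8 and 81.9 CPM in the Cal51 libraries and 149.4 and 162.1 CPM in the Cal51R libraries. Both Cal51R libraries lay well above both Cal51 libraries. The log2 fold change was 0.87 (SE 0.08), a 1.82-fold rise, with an adjusted p of 5.21e-08 in edgeR. GCLC (2729, chromosome 6, 53497341 to 53545101), the catalytic subunit, had 41.55 and 40.33 CPM in Cal51 and 47.40 and 48.34 CPM in Cal51R. The groups were apart but close, and the log2 fold change was 0.23 (SE 0.09), a 1.17-fold rise with an edgeR adjusted p of 0.0262. This call was lost in DESeq2 (adjusted p = 0.0887) and without Cal51 replicate 1 (0.139 in edgeR) or Cal51 replicate 2 (0.230). On the TPM scale the ratio of GCLM to GCLC was 1.55 and 1.47 in Cal51 and 2.27 and 2.43 in Cal51R. The balance between the subunits at the RNA level thus moved toward the modifier in both Cal51R libraries.

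GSR (2936, chromosome 8, 30678066 to 30727846) encodes glutathione reductase, which recycles oxidised glutathione with NADPH. It was the second most abundant of the 10 on the TPM scale in both lines. Its level was 468.9 and 468.5 CPM in Cal51 and 279.1 and 283.8 CPM in Cal51R. The libraries of each line lay close together, and both Cal51R libraries were lower. The log2 fold change was -0.74 (SE 0.07), a 1.67-fold fall with an edgeR adjusted p of 1.21e-07. The ligase subunits and the reductase therefore differed between the lines in opposite directions.

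GSTP1 (2950, chromosome 11, 67583812 to 67586653), the pi-class transferase that is the main cytosolic form in many tumours, had 957.8 and 1073 CPM in Cal51 and 2120 and 1738 CPM in Cal51R. Every Cal51R library lay above every Cal51 library, with a wider spread within Cal51R (SD 270.5 CPM) than within Cal51 (SD 81.7 CPM). The log2 fold change was 0.93 (SE 0.09), a 1.90-fold rise with an edgeR adjusted p of 2.38e-07. By TPM, GSTP1 ranked 23 and 22 among all genes in the Cal51 libraries and 5 in both Cal51R libraries.

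The omega-class transferases GSTO1 and GSTO2, which reduce disulfides and dehydroascorbate, lie next to each other on chromosome 10 and moved in opposite directions. GSTO1 (9446, 104254173 to 104267455) had 85.3 and 97.9 CPM in Cal51 and 57.5 and 53.0 CPM in Cal51R. Both Cal51R libraries were lower, and the log2 fold change was -0.73 (SE 0.09), a 1.66-fold fall with an edgeR adjusted p of 1.68e-06. GSTO2 (119391, 104269184 to 104304950) begins 1729 bases beyond the end of GSTO1 and had 30.7 and 32.7 CPM in Cal51 and 62.7 and 61.6 CPM in Cal51R. Both Cal51R libraries were higher, and the log2 fold change was 0.97 (SE 0.09), a 1.96-fold rise with an edgeR adjusted p of 4.44e-08. The ratio of GSTO1 to GSTO2 on the TPM scale was 8.06 and 7.01 in Cal51 and 2.31 and 2.41 in Cal51R. The transcripts of the pair share no stretch of 50 bases. The length implied by the deposited reads and FPKM of GSTO2 ranged 1.24 times over the libraries, so its TPM rests on an effective length that differed between libraries.

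GSTA4 (2941, chromosome 6, 52977953 to 52995284) is an alpha-class transferase known for conjugating 4-hydroxynonenal, a product of lipid peroxidation. It had 26.34 and 25.20 CPM in Cal51 and 26.41 and 29.88 CPM in Cal51R. Cal51 replicate 1 and Cal51R replicate 1 were almost equal. The log2 difference was 0.13 (95% interval -0.08 to 0.34) with an edgeR adjusted p of 0.260, so the data allow anything from 0.94-fold to 1.27-fold. Scaled by library totals instead of TMM, the value was 0.33 and passed.

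MGST1 (4257, chromosome 12, 16347115 to 16593331), a membrane-bound transferase and peroxidase of microsomes and mitochondria, had 28.9 and 30.7 CPM in Cal51 and 14.7 and 15.1 CPM in Cal51R. The 2 lines were well separated. The log2 fold change was -1.0 (SE 0.10), a 2.00-fold fall with an edgeR adjusted p of 2.27e-07.

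The mu-class transferases lie in a row on chromosome 1, and their transcripts are close copies, which bears on how reads were divided among them. GSTM2 shared 27.8% of its stretches of 50 bases with other mu-class genes (18.8% with GSTM1 and 12.6% with GSTM4), by GENCODE 29 transcripts, whereas GSTM3 shared 0. The reading frames of GSTM2 and GSTM4 are 90% identical, and their longest common run, 96 bases at the end of the frame (positions 562 to 657), is shown here because a read within it could not be placed on either gene from its sequence alone. Capitals mark bases that differ from GSTM2, and GSTM3 is given from the matching positions 574 to 669 of its longer frame.
GSTM2: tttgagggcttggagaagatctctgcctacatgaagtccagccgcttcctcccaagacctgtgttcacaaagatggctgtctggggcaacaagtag
GSTM4: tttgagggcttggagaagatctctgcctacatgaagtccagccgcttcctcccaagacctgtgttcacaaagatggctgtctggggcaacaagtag
GSTM1: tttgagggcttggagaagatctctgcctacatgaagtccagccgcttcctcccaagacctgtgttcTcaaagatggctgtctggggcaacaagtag
GSTM3: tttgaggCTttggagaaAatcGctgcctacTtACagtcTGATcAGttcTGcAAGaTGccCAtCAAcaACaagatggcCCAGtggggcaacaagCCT
GSTM4 was identical over this stretch, GSTM1 differed at 1 base, and GSTM3 at 34.

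GSTM2 (2946, 109668057 to 109683997) showed the largest difference of the 10. The Cal51 libraries held 837 and 701 reads of it and the Cal51R libraries 20 and 35, or 41.2 and 40.8 CPM against 1.06 and 1.62 CPM. Both Cal51R libraries were far below both Cal51 libraries. Their remaining reads are the authors' estimates, and how many of them belong to GSTM4 or GSTM1 was not tested. The log2 fold change was -4.91 (SE 0.16), a 30.0-fold fall with an edgeR adjusted p of 1.07e-13. On the log2(FPKM + 1) scale, whose pseudocount understates the change of low genes, it was -3.96. GSTM3 (2947, 109733937 to 109741038), the form that shared no such stretch with the others, had 175.8 and 185.2 CPM in Cal51 and 162.1 and 148.1 CPM in Cal51R. All 4 values were of similar size, and the log2 fold change was -0.22 (SE 0.08) with an edgeR adjusted p of 0.0164. The call was lost with library totals (-0.02, adjusted p = 0.817). It was also lost without Cal51 replicate 1 (0.0522), Cal51 replicate 2 (0.174) or Cal51R replicate 2 (0.0911).

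Reads of GSTM2 were 13.5% and 12.8% of all mu-class reads in Cal51 and 0.434% and 0.728% in Cal51R. The neighbouring GSTM4, which is no member but shares sequence with GSTM2, received 1766 and 1585 reads from the Cal51 libraries and 1524 and 1575 from the Cal51R libraries. Its log2 fold change was -0.22 with an edgeR adjusted p of 0.0235, a call lost under the same settings as that of GSTM3. GSTM1 received 17 and 14 reads from the Cal51 libraries and 9 and 4 from the Cal51R libraries. Its fold change ranged from -2.12 to -0.79 on the log2 scale over the alternatives, and the call was lost in DESeq2. It was also lost without either Cal51 library or Cal51R replicate 2. The mu-class reads summed to 6192 and 5485 in Cal51 and 4610 and 4806 in Cal51R, and their summed log2 fold change was -0.42 (SE 0.08) with an edgeR adjusted p of 0.000120. The part of the division of reads among these near-copies in the difference of GSTM2 was not tested. Over 4 libraries, the genes whose log2 CPM lay closest to GSTM2 were FHL1 (Euclidean distance 0.33), RAB38 (0.38) and CLIC5 (0.43). For GSTO2, the member with the largest fitted rise, they were COG1 (0.11), C1RL (0.14) and GCNT2 (0.14). The rises of GSTO2 and GSTP1 lay within each other's error, and without Cal51R replicate 2 GSTP1 had the larger value (1.06 against 0.98 on the log2 scale).

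Within 250 kb of GSTM2, 13 genes were tested, of which 6 rose, 4 fell and 3 did not pass. For this count and those around the other members, 35.3% of all tested genes rose and 35.5% fell. GSTM4, which ends 330 bases before GSTM2 begins, and GSTM3 had the small differences given above, and GSTM1 had a log2 fold change of -1.34. PSMA5, a proteasome subunit, fell, with a log2 fold change of -0.22. EPS8L3 (2.04), CSF1 (1.79), CYB561D1 (1.32), ATXN7L2 (0.75), AMIGO1 (0.41) and AMPD2 (0.21) rose on the log2 scale, while SYPL2, GNAI3 and GNAT2 did not pass. The value of EPS8L3 (SE 0.43) rests on few reads, 5 and 7 from the Cal51 libraries and 28 and 26 from the Cal51R libraries. The values of PSMA5 and AMPD2 are close in size to the shift of 0.20 that scaling by library totals gives to the median of all genes. Around GSTM3, 12 genes were tested, of which 7 rose, 3 fell and 2 did not pass, and these included AHCYL1, which rose (0.67). Around GSTO1, 6 genes were tested, and GSTO2 and ITPRIP (0.42) rose, SLK (-0.48), COL17A1 (-1.70) and CFAP58 (-1.41) fell, and SFR1 (0.12) did not pass. Reads were few for COL17A1 (24 and 19 in Cal51, 11 and 3 in Cal51R) and CFAP58 (14 and 11 in Cal51, 3 and 7 in Cal51R). Near GSTP1, 17 genes were tested, of which 10 rose, 3 fell and 4 did not pass.

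**Figure D2:**
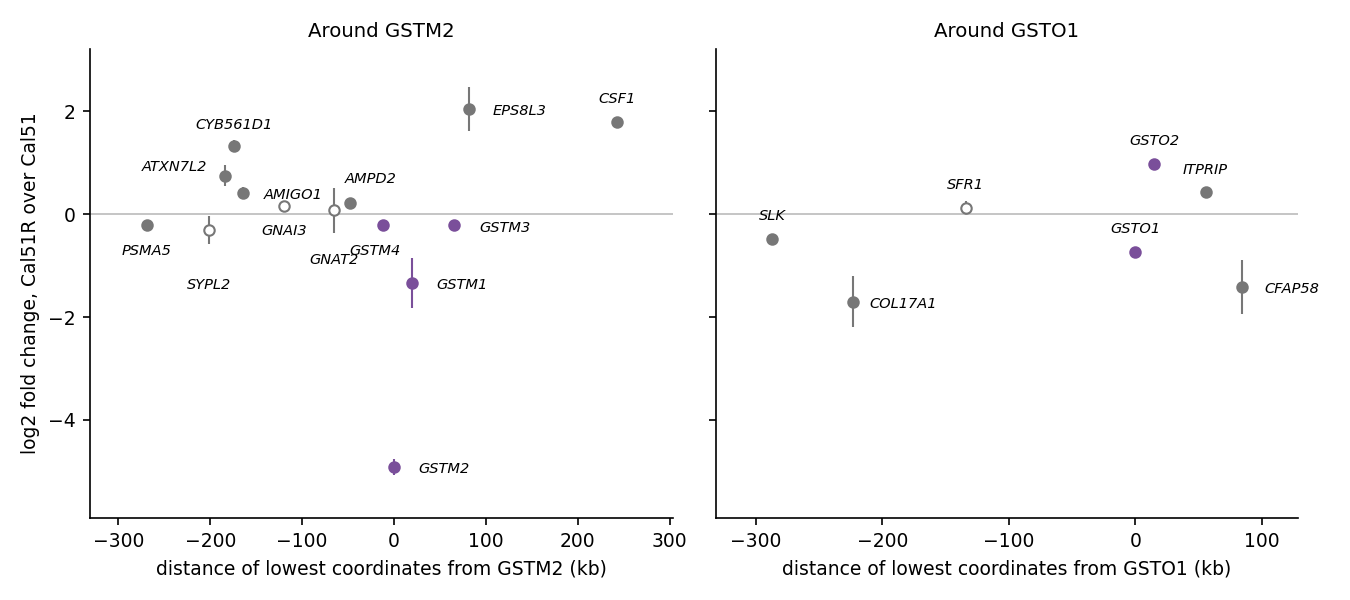
Log2 fold change (Cal51R over Cal51, with SE as bars) of the tested genes within 250 kb of GSTM2 and of GSTO1, against the distance of their lowest coordinates in kb. Filled points passed the test and open points did not, and glutathione transferases are in purple: GSTM2 at -4.91 stands well below every neighbour, and GSTO1 and GSTO2 lie on opposite sides of 0.

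On the TPM scale, which allows genes to be compared, GSTP1 made up most of the transferase RNA in both lines. The 19 transferase genes in the table summed to 4072 and 4304 TPM in Cal51 and 8399 and 7498 TPM in Cal51R. GSTP1 accounted for 72.9% ± 0.294 of the sum in Cal51 (SD, n = 2) and 86.3% ± 0.906 in Cal51R (SD, n = 2). These sums and shares were not tested, since an exact permutation test of 2 libraries against 2 cannot give a two-sided p below 0.333. TPM has the same total in every library and carries no TMM scaling, so the difference of a sum between the lines depends on the scaling. GSTM3, for example, had a mean of 92.3 TPM in Cal51 and 93.9 TPM in Cal51R, but 180.5 and 155.1 CPM after TMM. Without GSTP1, the other 18 genes summed to 1112 and 1158 TPM in Cal51 and 1100 and 1078 TPM in Cal51R. Within that remainder the makeup differed. GSTM2 held 6.74% in Cal51 and 0.272% in Cal51R, MGST1 6.21% and 3.85%, and GSTO1 22.0% and 16.4%. GSTO2 held 2.93% in Cal51 and 6.94% in Cal51R.

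**Figure D3:**
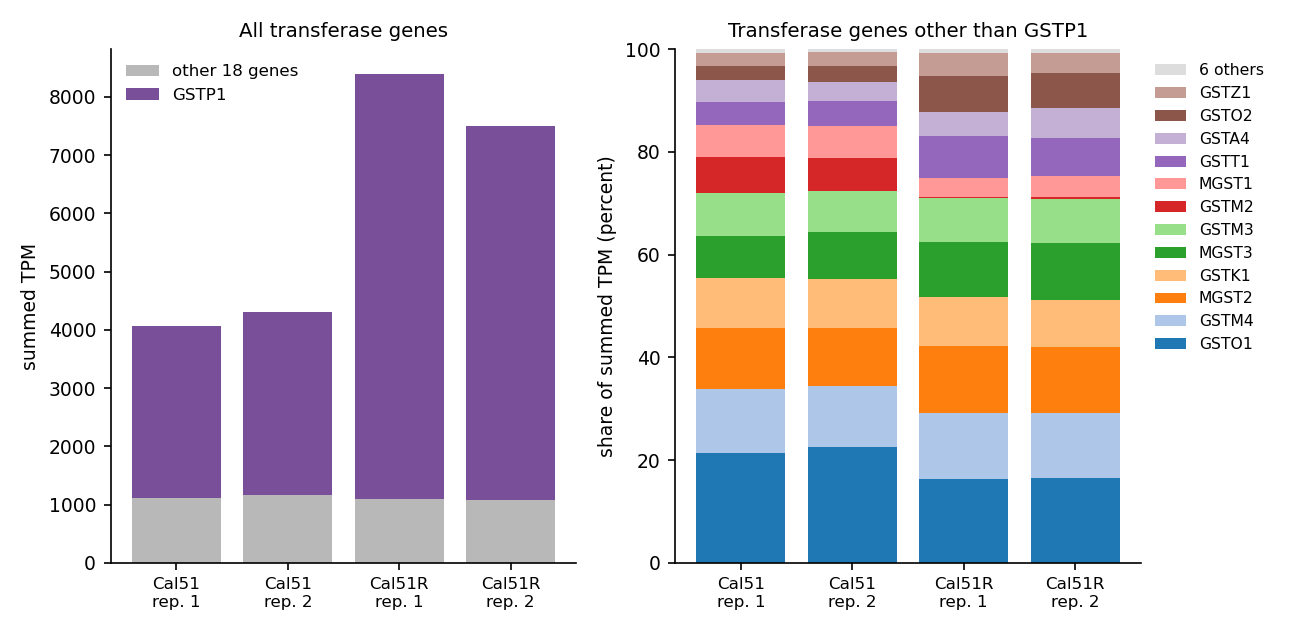
Left, summed TPM of the 19 transferase genes in each library, with GSTP1 stacked on the other 18. Right, the share of each of these 18 in their summed TPM (percent). On this scale, which carries no TMM scaling, the sum without GSTP1 stays between 1078 and 1158 TPM in all 4 libraries, while GSTP1 is higher in both Cal51R libraries.

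Among all 10 genes the order by TPM began with GSTP1, GSR, GSTO1 and GSTM3 in both lines. In Cal51 these were followed by GSTM2, MGST1, GSTA4, GCLM, GSTO2 and GCLC, where GCLM (38.49 and 33.83 TPM) and GSTO2 (29.64 and 37.07 TPM) overlapped. In Cal51R they were followed by GCLM, GSTO2, GSTA4, MGST1, GCLC and GSTM2, where GCLM (72.17 and 84.42 TPM) and GSTO2 (77.63 and 73.52 TPM) overlapped. GSTM2 moved from the fifth place to the last.

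The promoters of 9 members, from 250 bases before to 50 bases after the starts that the RefSeq promoter table (GRCh38.p14) gives, were searched on both strands for the core of the antioxidant response element, TGACNNNGC. GSR was left out of this search, so whether its promoter holds a match is not known here. A match was found for 5 members (GSTP1, GCLM, GSTO1, GSTA4 and MGST1, the last in 1 of its 3 windows) and none for 4 (GSTM2, GSTM3, GSTO2 and GCLC). It was present in 16.1% of 27305 genes with a window and in 18.6% of the 13517 genes of the table that had one. The members with a match included genes that rose (GSTP1, GCLM), fell (GSTO1, MGST1) or did not pass (GSTA4). The 250 bases before the start are shown for the rising GSTP1 and GCLM and for the falling GSTO1, which hold a match in capitals, and for GSTM2, which fell most and holds none. They cover chr11:67583562-67583811 (plus strand) for GSTP1, chr1:93909431-93909680 (minus strand) for GCLM, chr10:104254642-104254891 (plus strand) for GSTO1 and chr1:109667807-109668056 (plus strand) for GSTM2. For GSTO1 the table's start is 104254892, which lies inside the gene span given above, so its window is not upstream of the whole gene.
GSTP1: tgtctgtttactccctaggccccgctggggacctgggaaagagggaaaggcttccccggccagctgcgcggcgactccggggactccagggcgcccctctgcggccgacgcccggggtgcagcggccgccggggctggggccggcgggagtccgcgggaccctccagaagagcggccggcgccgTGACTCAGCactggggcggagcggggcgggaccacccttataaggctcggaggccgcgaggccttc
GCLM: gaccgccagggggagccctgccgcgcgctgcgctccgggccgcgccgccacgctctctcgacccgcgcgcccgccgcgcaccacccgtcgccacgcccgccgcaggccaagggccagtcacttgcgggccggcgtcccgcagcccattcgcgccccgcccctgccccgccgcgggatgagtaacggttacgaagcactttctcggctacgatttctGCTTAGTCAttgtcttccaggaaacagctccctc
GSTO1: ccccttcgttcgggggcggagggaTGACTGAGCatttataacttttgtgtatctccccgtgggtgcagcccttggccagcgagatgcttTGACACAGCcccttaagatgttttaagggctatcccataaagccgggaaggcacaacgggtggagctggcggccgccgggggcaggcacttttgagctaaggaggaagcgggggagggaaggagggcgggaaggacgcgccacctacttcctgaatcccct
GSTM2: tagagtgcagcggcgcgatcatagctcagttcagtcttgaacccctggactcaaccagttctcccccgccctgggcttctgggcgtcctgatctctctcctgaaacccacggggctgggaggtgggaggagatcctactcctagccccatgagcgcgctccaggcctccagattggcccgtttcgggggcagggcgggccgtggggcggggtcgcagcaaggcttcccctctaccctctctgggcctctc
The match lies 66 bases before the start in GSTP1, on the opposite strand 34 bases before it in GCLM, and 226 and 161 bases before the table's start in GSTO1. A match describes letters in this window and is no measure of binding.

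Outside the 10 genes, the cystine importer gene SLC7A11 had the largest rise among the tested genes of synthesis, turnover and cysteine supply. Of these 18 genes, 5 rose, 10 fell and 3 did not pass, and with library totals 7 rose and 6 fell. This count and those of the lists below stand beside 70.8% of all tested genes that changed, and no list was tested as a set. SLC7A11, the light chain of the cystine importer, had 71.0 and 68.6 CPM in Cal51 and 436.6 and 486.3 CPM in Cal51R, a log2 fold change of 2.72 (SE 0.08) with an edgeR adjusted p of 5.68e-14. CTH, which makes cysteine from cystathionine, rose by 1.31, and CHAC1, which degrades glutathione, rose by 1.86 on the log2 scale. GGT1 and GGCT, which also act in glutathione breakdown, fell, with log2 fold changes of -0.63 and -0.62. SLC3A2 (-0.51) and GSS (-0.31) of the same list fell too, though GSS did not pass with library totals. For GGT5, a relative of GGT1, the Cal51 libraries together gave 631 reads and the Cal51R libraries 3, a scaled ratio of 227 (exact 95% interval 77.2 to 1102, counting error only).

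The exporters of glutathione conjugates were split, with 3 that rose and 3 that fell among 6 tested, where 70.8% of all tested genes changed. ABCC1, which exports glutathione conjugates and anthracyclines, had 254.0 and 244.3 CPM in Cal51 and 779.1 and 800.9 CPM in Cal51R, a log2 fold change of 1.66 (SE 0.07) with an edgeR adjusted p of 6.77e-12. ABCC3 (0.39) and ABCC5 (0.23) rose on the log2 scale, the first not without Cal51 replicate 1 and the second not in DESeq2, with RLE factors, or without Cal51 replicate 2 or Cal51R replicate 2. ABCC2 (-3.14) and ABCC4 (-1.75) were among those that fell. Among the transferases that are not members, 11 were tested, of which 3 rose, 3 fell and 5 did not pass, and with library totals 4 rose and 1 fell. PTGES (0.62), GSTT1 (0.40) and GSTZ1 (0.38) rose, and GSTK1 (-0.33), GSTM4 and GSTM1 fell. The calls of GSTT1 and GSTZ1 were lost without Cal51 replicate 1 or Cal51R replicate 1, and that of GSTK1 without Cal51 replicate 2 or with library totals. For GSTA1 there were 8 and 4 reads from the Cal51 libraries and 0 from those of Cal51R. Against a limit of 3 counts per library in Cal51R, the Cal51 level was 2.1-fold higher, a ratio that leaves out counting error.

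All 9 tested glutaredoxins, glyoxalases and related genes changed, 3 upward and 6 downward, beside 70.8% of all tested genes. GLO1 and GLRX3 fell, with log2 fold changes of -0.75 and -0.70, as did GLRX5 (-0.50). LANCL1 (0.49), HAGH (0.23) and GLRX (0.82) rose, the last from 1.18 and 1.46 CPM to 1.86 and 2.74 CPM. The calls of HAGH and GLRX were lost in DESeq2 and without Cal51 replicate 1, that of HAGH also without Cal51 replicate 2 or Cal51R replicate 1, and that of GLRX without Cal51R replicate 2. With library totals, 3 of the 9 rose and 5 fell. Transcripts of NRF2 itself (NFE2L2) were at 165.3 and 163.7 CPM in Cal51 and 165.1 and 170.5 CPM in Cal51R, with a log2 difference of 0.03 and an edgeR adjusted p of 0.733, and with library totals, which shift all genes, it was 0.23 and passed. KEAP1, its inhibitor, rose by 0.23 (adjusted p = 0.0214), a call lost without either Cal51 library or Cal51R replicate 1. Of the 10 NRF2 regulators, 4 rose, 3 fell and 3 did not pass, and with library totals 6 rose and 3 fell. The small MAF partners of NRF2 differed in direction: MAFF rose by 1.23 and MAFG by 0.51, while MAFK fell, with a log2 fold change of -1.08. NFE2L1 (0.31) rose, and BACH1 (-0.41), a repressor of NRF2 targets, and RBX1 (-0.47) fell, though BACH1 did not pass on the FPKM scales.

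Known NRF2 targets outside the glutathione system went both ways, with 8 that rose, 7 that fell and 4 that did not pass among 19 tested. Of all tested genes, 35.3% rose and 35.5% fell. FTH1 (ferritin heavy chain, 1.58), AKR1C2 (1.54) and OSGIN1 (1.12) rose on the log2 scale. TXN (thioredoxin, -1.77), NQO1 (-1.45) and IDH1 (-1.02) fell. NQO1 had 656.1 and 684.0 CPM in Cal51 and 257.2 and 233.7 CPM in Cal51R. The median log2 fold change of the 19 was 0.14, and with library totals 11 rose and 6 fell.

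**Figure D4:**
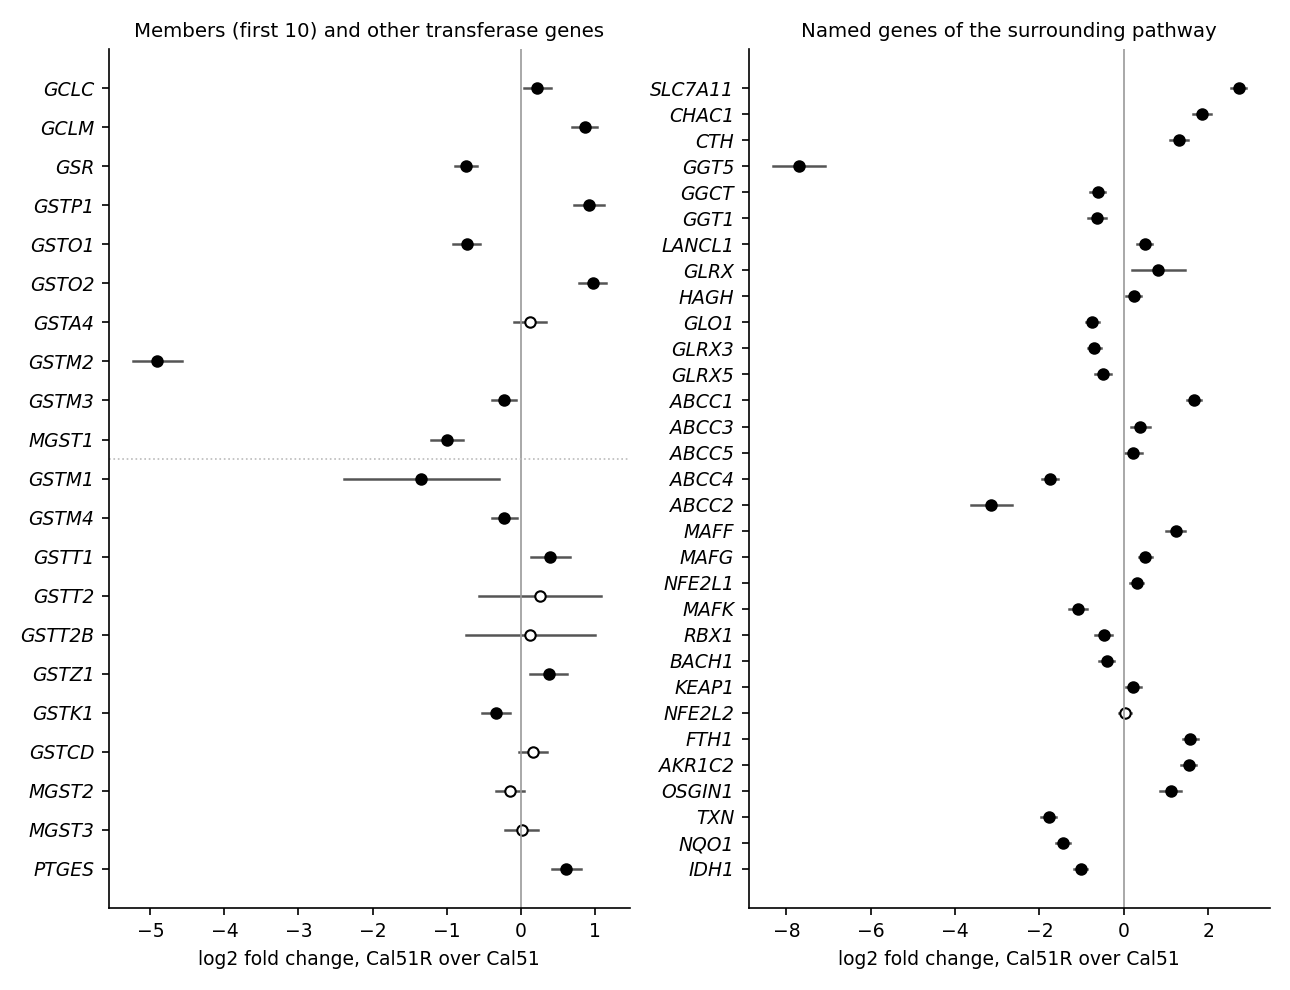
Left, log2 fold change (Cal51R over Cal51), with 95% intervals, of the 10 genes and the other tested transferases. Right, the same for the named pathway genes except SLC3A2 and GSS, on an axis of different range. Filled points passed the test and open points did not, and the point of GGT5 rests on 3 reads in Cal51R.

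**Figure D5:**
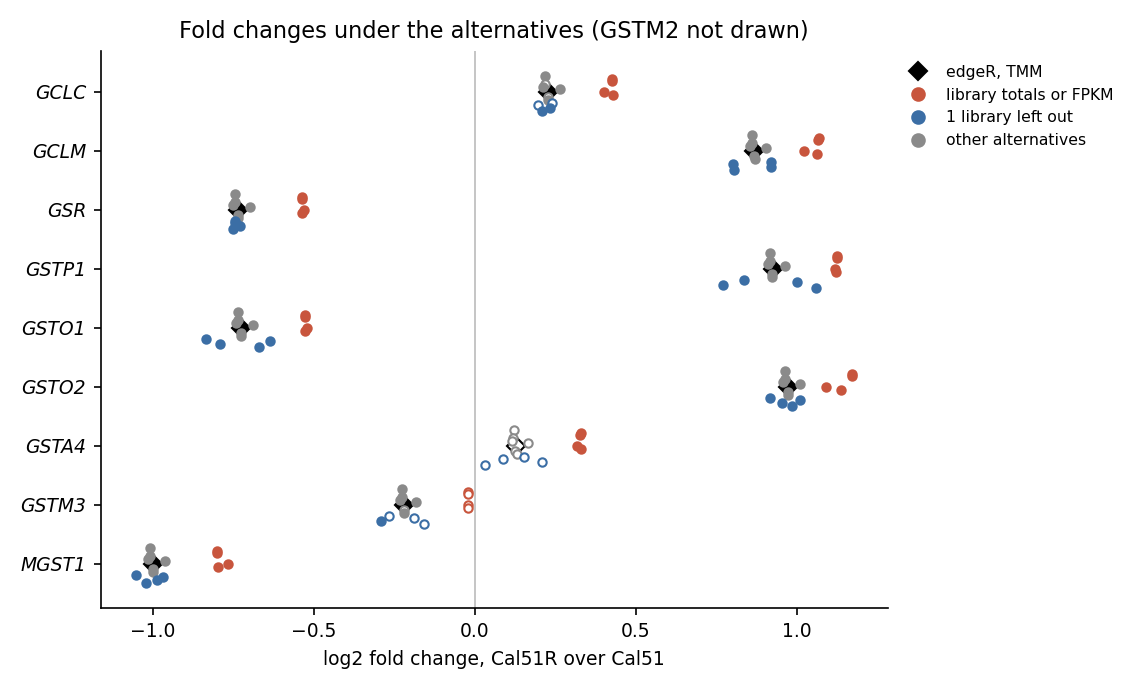
Log2 fold change of each member except GSTM2 in the reported edgeR test (black diamonds) and under each alternative (circles), with open markers where the adjusted p was 0.05 or more. GSTM3, GSTA4 and GCLC change their call, and the other 6 genes drawn do not.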

How the data were processed

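Polyadenylated RNA was sequenced from 2 Cal51 and 2 Cal51R libraries. The build is hg38, and the tools listed are RSEM 1.2.8, Bowtie2 2.2.5, DESeq and HISAT2 2.1.0, per the submitters' processing notes, which give no roles. The sources used here name no annotation. The authors deposited read counts, FPKM and TPM for each library, per the file headers, and the values show the counts to be expected counts, of which 27.0% to 31.8% were whole at 2 decimals. They were rounded and tested with edgeR 4.0.16 (R 4.3.3): TMM scaling, filterByExpr (minimum count 10), quasi-likelihood test, line as the only term, and Benjamini-Hochberg adjustment over 13674 genes. The coefficient of variation between replicates beyond counting error, in edgeR's common estimate over the tested genes, was 5.83%. TPM served for levels and shares, and FPKM for alternatives and implied lengths. The edgeR test with TMM scaling, DESeq2 and limma (on scaled counts in place of FPKM) were run on simulated counts with known changes. Few genes changed there, equally in both directions, so the simulation cannot show how scaling behaves where most genes change. The other alternatives were not simulated.

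The members and gene lists were chosen with earlier results of these data known. Named besides the members are, from each list, the 3 rising and 3 falling genes of smallest p at most, NFE2L2 and KEAP1, the 3 genes nearest to GSTM2 and to GSTO2 in log2 CPM (prior count 2), and tested genes within 250 kb of GSTM2, GSTM3, GSTO1 and GSTO2. GSTA1, SLC3A2, GSS and the quoted mu-class reads were named after their values were seen. Positions come from RefSeq (GRCh38.p14), shared sequence from GENCODE 29 transcripts. A gene that this rule takes is not reported here. The sources used here name neither strand-specific counting nor molecular identifiers, so overlapping genes cannot be told apart. The interval from the read counts of GGT5 covers counting error only, and the ratio of GSTA1 has no interval. Intervals of fold changes come from the edgeR fit. Alternatives were library totals with and without the 10 highest genes, RLE factors, DESeq2 1.42.0, 5 CPM in 2 libraries or no filter, the omission of each library, a replicate block, and limma 3.58.1 on log2(FPKM + 0.1) or log2(FPKM + 1) for genes with 1 FPKM in 2 libraries.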

Additional observations from a re-analysis of the deposited data

How the results depend on the processing

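Of 155 fold changes under alternatives, 139 kept their direction and their side of the threshold, 12 no longer passed, 4 newly passed and 0 changed sign. The 155 include those of the crossed pairing given below. They also include GSTM2 on its own (-4.91) in place of the summed mu-class reads (-0.42), which kept the direction but not the size. All 56 recomputed counts of genes stayed within 1.5 times the reported ones. Scaling by library totals moved the median log2 fold change of all genes by 0.20, and 64.7% of called genes were then higher in Cal51R against 49.9%. GSTM3 did not pass with library totals (-0.020), totals without the 10 highest genes (-0.021), log2(FPKM + 1) (-0.021) or log2(FPKM + 0.1) (-0.021). GSTA4 passed with these 4 settings (0.33, 0.33, 0.32 and 0.33). GCLC did not pass in DESeq2 (0.22). Leaving out 1 library gave -0.29 to -0.16 for GSTM3 and 0.20 to 0.24 for GCLC, and 7 to 9 members that changed. Counted over cytosolic transferases alone, the GSTP1 share was 78.5% in Cal51 and 89.7% in Cal51R. The correlation between the deviations of same-numbered libraries was -0.16. With 2 libraries per line, this value cannot decide whether the replicate numbers pair the libraries. With the replicate block, 8905 genes were called instead of 9685, and GSTM3 (-0.22) and GCLC (0.23) did not pass; the crossed pairing, chosen after seeing the data, called 10657. The causes were not tested. Reads below 3 per library, as for GSTA1 in Cal51R, are at the limit of this depth.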
